A study of Rattus norvegicus with 17 samples.

Results

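Genes of fatty acid oxidation and of the peroxisome were examined in rat kidney after sub-total nephrectomy (SNx), an operation that removes most of the functioning kidney mass and leaves a remnant that fails progressively. The 44 genes came from the parts available here of the study's transcript lists of changed genes. Their symbols name enzymes of acyl-CoA activation, transport and oxidation, their thioesterases, fatty acid binding proteins or peroxins. Acsl5 was left out by name. All 44 were among the 15438 genes tested, out of 23487 in the count table. The available parts held 1998 rows from the other SNx study of the paper, which used other rats, and 510 rows from the present one. Both are fewer than the changed genes that the paper counts. Of the 44, 39 stood only in the part from the other study, and whether the full list of the present study also holds them is not known here. The other 5 (Acad10, Acsf3, Ech1, Echdc3 and Hadh) were listed from the present libraries, so for them values are described without a test. Because every gene came from a list of changed genes, the number that changed is a description of these genes and not a property of the pathways.

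The kidneys came from 12 male Wistar Han rats with SNx and 5 control rats of the same strain and sex, 1 library per rat, and none of the labels names any other treatment. In SNx the larger part of the right kidney was resected and the left kidney was taken out in a later operation. The labels call the controls NoOp, a name kept in this text, whereas the paper describes the controls of this study as sham. SNx rats were killed at different times, and the paper states that most SNx rats of this study did not reach its thresholds of serum creatinine or proteinuria. Fewer rats reached them than are analysed here and the labels do not say which did, so the SNx group includes rats that had not. Neither set of labels gives an age. The paper reports RNA integrity estimates over a wide range, down to very low values, and the labels give none per library. According to the paper, part of the kidney tissue was fixed for histology and the rest was frozen for proteomics or transcriptomics. The sources used here do not say which region of the kidney gave the RNA. It was depleted of ribosomal RNA and sequenced as strand-specific paired-end libraries. Each value is an average over all cells of the tissue used, and fewer cells of a type and less RNA per cell cannot be told apart. Estimated counts summed to between 19210434 and 30784070 in SNx and between 30454170 and 43876369 in NoOp. Levels are given as log2 CPM, in which counts are set relative to the TMM-scaled library size with a prior count of 2, and are compared within a gene only.

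Fatty acids are activated to acyl-CoA thioesters by synthetases before they are burned. Long chains enter mitochondria through carnitine palmitoyltransferases, and each turn of β-oxidation then uses a dehydrogenase, a hydratase, a second dehydrogenase and a thiolase, with electrons passed on by the electron transfer flavoprotein. Peroxisomes shorten very long and branched chains by a parallel set of enzymes that starts with an oxidase, and peroxins import those enzymes and divide the organelle. The proximal tubule of the kidney relies on fatty acid oxidation for its energy and is rich in both organelles. Many genes of both pathways are known targets of nuclear receptors such as PPARα and HNF4α, which bind copies or close variants of the half-site AGGTCA.

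To show where such letters stand near these genes, promoters from 250 bases before to 50 bases after the start of the gene were read from RefSeq (rat build GRCr8, whereas the counts used rn6). Of the 44 genes, 35 matched a promoter by symbol. AGGTCA, searched on both strands, was present in 12 of the 35 (34.3%) and in 16.2% of all 33469 promoters of the same length. A direct repeat of the half-site with a single base between the copies (DR1), also searched on both strands, was in 0 of the 35 promoters and in 0.0538% of all. A looser form, which takes any base at the fourth position of each copy and so includes every match of the stricter repeat, was also in 0 of the 35 and in 0.415% of all. These matches are letters in a window and not shown to be bound sites. One 30-base window, on the strand of the gene, is printed for a few genes that recur in the results, with the half-site or its reverse complement in capitals.

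Acadvl, chr10:55236857-55236886, minus strand: atggatcaccctAGGTCAagtagaatacag
Eci1, chr10:13961144-13961173, plus strand: actggctgatctTGACCTcctgaagggcgg
Acsm3, chr1:183564591-183564620, plus strand: ggctctctctgcAGGTCAaattctgtccac
Hsd17b4, chr18:45515359-45515388, plus strand: cccgaaaccaccAGGTCActtgtttgtgtc
Amacr, chr2:61673122-61673151, plus strand: accggagaccaaAGGTCAgcagctaaacct
Acot12, chr2:24721842-24721871, plus strand: cttgtaggacccTGACCTctcacctcctaa

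Among the 39 genes listed from other rats, 36 were lower in SNx kidneys than in NoOp and 1 was higher, at FDR < 0.05 by edgeR's quasi-likelihood test. The remaining 2, Fabp4 and Acot5, did not pass. Over all genes tested, 27.7% were called lower and 30.3% higher, 58.0% in all. The 5 genes chosen on these libraries had negative log2 fold changes, which are given below as values only. The median of the log2 fold changes was -1.13 over the 39 genes and -1.17 over the 44 genes, the latter a level of 44.5% of NoOp, beside a median of 0.02 over all genes tested. In 20 of the 39 genes every SNx library was below every NoOp library, and in 1 gene every SNx library was above, where over all genes tested these shares were 9.60% and 13.5%.

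**Figure D1:**
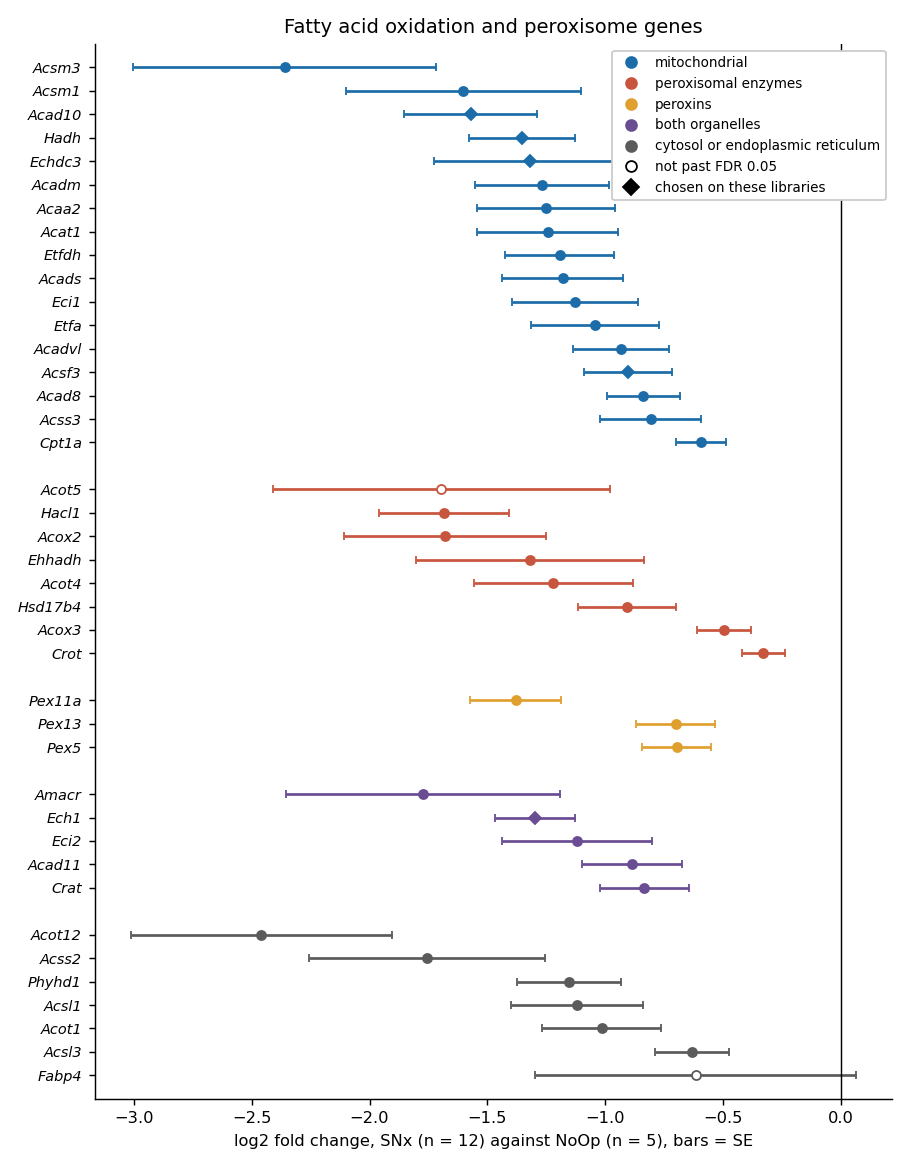
Log2 fold change of SNx (n = 12) against NoOp (n = 5) for 40 of the 44 genes, grouped by location and ordered within it, with bars showing the standard error. All values shown are below 0. Open symbols mark Fabp4 and Acot5, which did not pass FDR < 0.05, and diamonds mark the 5 genes chosen on these libraries.

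Of the 18 genes of mitochondrial enzymes, 14 were listed from other rats. All 14 fell (median log2 fold change -1.19), and in 7 of them the groups did not overlap. With the 4 genes chosen on these libraries (Acad10, Acsf3, Echdc3 and Hadh) the median was -1.22. The counts by location, here and below, stand beside 27.7% of all genes tested that were called lower. In 9.60% of all genes tested every SNx library was below every NoOp library. Entry of long chains begins with Cpt1a, the carnitine palmitoyltransferase of the outer membrane and the controlling step of mitochondrial oxidation. It stood at 8.44, 8.65, 8.57, 8.97 and 8.44 log2 CPM in NoOp 1 to NoOp 5. Across SNx it ranged from 7.70 in SNx 1 through a median of 8.10 to 8.29 in SNx 4. No SNx kidney reached the NoOp range, and the fall of 0.59 on the log2 scale (SE 0.10, edgeR adjusted p = 0.00021) was the smallest of the mitochondrial group.

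The acyl-CoA dehydrogenases, which open each turn of the cycle, fell further. Acadvl, which takes very long chains, was at 8.12, 8.42, 8.34, 8.56 and 8.51 log2 CPM in NoOp. In SNx its lowest, median and highest values were 6.46, 7.45 and 8.09, with no overlap between groups (log2 fold change -0.93, SE 0.20, edgeR adjusted p = 0.0011). Acadm, the medium-chain dehydrogenase, was at 9.22, 9.18, 9.32, 9.40 and 9.25 log2 CPM in NoOp, close together. Its SNx values were far more spread, at 6.35 in SNx 1, a median of 7.86 and 8.84 in SNx 11. All 12 were below NoOp, and the mean level was 41.5% of NoOp (log2 fold change -1.27, SE 0.29, edgeR adjusted p = 0.0014). The short-chain enzyme Acads fell by 1.18 on the log2 scale and Acad8, the dehydrogenase of the valine pathway, fell by 0.84. Acad10, an acyl-CoA dehydrogenase family member, had a log2 fold change of -1.57 (SE 0.28).

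Hadh, the short-chain hydroxyacyl-CoA dehydrogenase, carries out the later oxidation step. Its levels were 7.82, 8.16, 7.99, 8.13 and 7.89 log2 CPM in NoOp, against 5.40, 6.71 and 7.35 as the lowest, median and highest in SNx. The SNx kidneys therefore all lay below NoOp, with a log2 fold change of -1.35 (SE 0.22). The thiolase Acaa2 closes the cycle. It was at 7.40, 8.12, 8.18, 8.85 and 8.33 log2 CPM in NoOp and at 5.92, 7.02 and 7.86 as the lowest, median and highest in SNx. Here the groups overlapped through NoOp 1, which was below 3 of the 12 SNx libraries, and the gene fell by 1.25 on the log2 scale (SE 0.29, edgeR adjusted p = 0.0018). Eci1, the isomerase for unsaturated chains, fell by 1.13 with a similar overlap through the same control, at 6.79 in NoOp 1. Echdc3, an enoyl-CoA hydratase domain protein, had a log2 fold change of -1.32 (SE 0.41).

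Electron transfer genes fell with the dehydrogenases that feed them. Etfdh, which hands electrons from the flavoprotein to ubiquinone, stood at 7.17, 7.29, 7.32, 7.49 and 7.11 log2 CPM in NoOp. The SNx libraries ran from 4.82 through a median of 6.08 to 6.84, all below the lowest control (log2 fold change -1.19, SE 0.23, edgeR adjusted p = 0.00047). Etfa, the alpha subunit of the flavoprotein, fell by 1.04, and 11 of 12 SNx libraries were below NoOp.

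Among the synthetases of the mitochondrial matrix, Acsm3 and Acsm1 were uneven among the rats, with SDs of log2 CPM in SNx of 2.12 and 1.39. Acss3 and Acsf3 were more even, at 0.52 and 0.45. Acsm3, a medium-chain enzyme, was at 8.29, 8.51, 9.09, 8.45 and 8.32 log2 CPM in NoOp. SNx kidneys ranged from 0.60 in SNx 1 through a median of 5.96 to 7.64 in SNx 11, all below the lowest control. The level in SNx was 19.5% of NoOp (log2 fold change -2.36, SE 0.64, edgeR adjusted p = 0.0051). Its relative Acsm1 fell by 1.60, the short-chain enzyme Acss3 fell by 0.81, and the malonyl-CoA synthetase Acsf3 had a log2 fold change of -0.90 (SE 0.19). Acat1, the acetoacetyl-CoA thiolase of ketone metabolism, fell by 1.24.

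**Figure D2:**
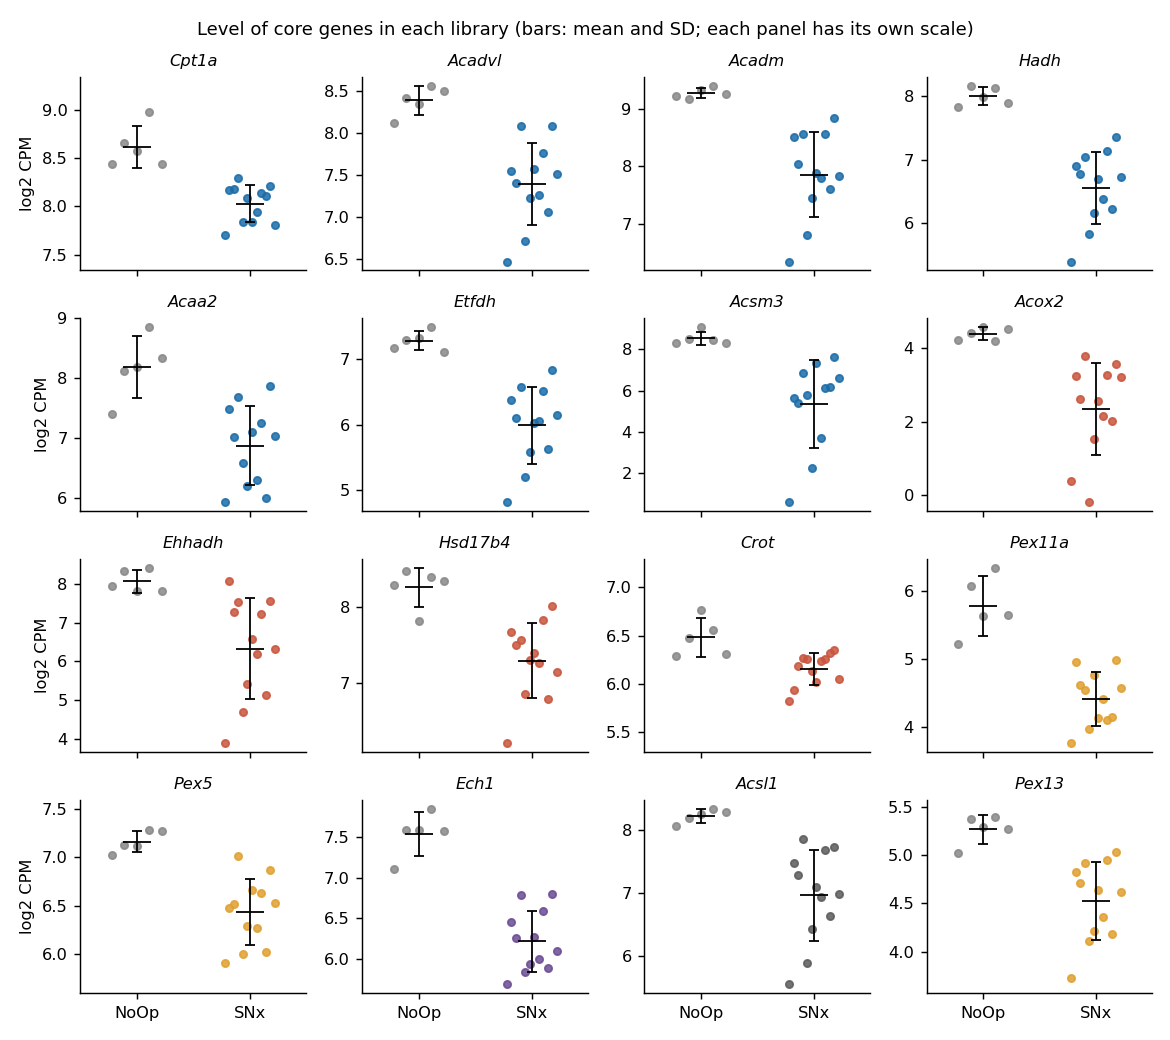
Level in each library (log2 CPM, 1 panel per gene with its own scale) of 16 genes, NoOp in grey and SNx in the colour of the location used for the fold changes, with the mean and SD as bars. Cpt1a and Crot show a small and even shift, and Ehhadh a wide spread from 3.88 to 8.07 in SNx.

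Of the 9 peroxisomal enzymes 8 fell, and Acot5 did not pass the test. Their median log2 fold change was -1.29, and in 3 of the 9 the groups did not overlap. Over all genes tested 27.7% were called lower, and in 9.60% every SNx library was below every NoOp library. The oxidases of branched chains differed from one another. Acox2, which also acts on bile acid intermediates, stood at 4.24, 4.43, 4.59, 4.20 and 4.54 log2 CPM in NoOp. Every SNx library was lower, from -0.19 in SNx 5 through a median of 2.60 to 3.79 in SNx 4 (log2 fold change -1.68, SE 0.43, edgeR adjusted p = 0.0033). Acox3 fell by 0.50.

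The hydratase and dehydrogenase steps are joined in the bifunctional proteins Ehhadh and Hsd17b4. Ehhadh was at 7.94, 8.34, 7.82, 8.42 and 7.80 log2 CPM in NoOp. In SNx it ranged from 3.88 in SNx 1 through a median of 6.45 to 8.07 in SNx 2, which lay inside the NoOp range, while the other 11 were below it. The log2 fold change was -1.32 (SE 0.48, edgeR adjusted p = 0.027). This call rested on single controls, since without NoOp 2 the edgeR adjusted p was 0.057 and without NoOp 4 it was 0.062. Hsd17b4 was at 8.29, 8.47, 7.82, 8.39 and 8.34 log2 CPM in NoOp, with NoOp 3 apart from the rest. Its SNx values of 6.21, 7.35 and 8.01 (lowest, median and highest) overlapped NoOp only through that library, and the gene fell by 0.91 on the log2 scale (SE 0.21, edgeR adjusted p = 0.0015). For Hacl1, the lyase of α-oxidation, the log2 fold change of -1.68 (SE 0.27) went with no overlap between groups.

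Crot, the carnitine octanoyltransferase that exports shortened chains, showed the smallest fall of all genes that passed. Its NoOp levels were 6.29, 6.48, 6.77, 6.56 and 6.31 log2 CPM. The SNx libraries lay close together, at 5.82, 6.21 and 6.35 as the lowest, median and highest, and 10 of 12 were below NoOp. The fall was 0.33 on the log2 scale (SE 0.09, edgeR adjusted p = 0.0055), and with library size alone as the scaling the log2 fold change was -0.13 and did not pass (edgeR adjusted p = 0.21). Acot4 and Acot5 are peroxisomal thioesterases with close relatives beside them on chromosome 6, so reads may have been shared between copies, Acot1 included, and the same holds for Acsm1 and Acsm3 on chromosome 1. Acot4 fell by 1.22. Acot5 was near the limit of detection, at 81, 23, 61, 30 and 109 counts in NoOp and between 1 and 73 counts in SNx with a median level of -1.69 log2 CPM. Its log2 fold change was -1.70 (SE 0.71, edgeR adjusted p = 0.0503), and of the 12 SNx libraries 9 were below the lowest control of -0.23 log2 CPM.

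The 4 peroxins fell with a median log2 fold change of -0.70. Pex11a, which promotes elongation and division of peroxisomes, was at 5.22, 6.08, 5.63, 6.35 and 5.64 log2 CPM in NoOp. Values in SNx ran from 3.75 through a median of 4.47 to 4.99, all below NoOp, and gave a log2 fold change of -1.38 (SE 0.19, edgeR adjusted p = 2.5e-05). The import genes fell less. Pex5, the receptor for proteins with the type 1 peroxisomal signal, stood at 7.02, 7.12, 7.12, 7.28 and 7.27 log2 CPM in NoOp and at 5.91, 6.50 and 7.01 (lowest, median and highest) in SNx. The groups were narrowly separated, SNx 4 lying just below NoOp 1, and the log2 fold change was -0.70 (SE 0.15, edgeR adjusted p = 0.00091). Pex13, of the docking complex, was at 5.02, 5.37, 5.29, 5.39 and 5.27 log2 CPM in NoOp and at 3.73, 4.63 and 5.03 in SNx, where SNx 11 was level with the lowest control. It fell by 0.70 (SE 0.17, edgeR adjusted p = 0.0021).

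Some enzymes work in both organelles. Of these 5, the 4 listed from other rats all fell, and Ech1 was chosen on these libraries. The median log2 fold change of the 5 was -1.12. Ech1, a dienoyl-CoA isomerase, was at 7.10, 7.58, 7.58, 7.85 and 7.58 log2 CPM in NoOp and at 5.69, 6.18 and 6.80 as the lowest, median and highest in SNx. The groups did not overlap, and the log2 fold change was -1.30 (SE 0.17). Amacr, the racemase that readies branched chains for oxidation, was at 7.99, 8.77, 8.48, 8.54 and 8.82 log2 CPM in NoOp. In SNx it varied from 3.20 in SNx 1 through a median of 6.78 to 8.19 in SNx 11, the single library inside the NoOp range (log2 fold change -1.77, SE 0.58, edgeR adjusted p = 0.015). Crat, which moves acetyl groups onto carnitine, was at 7.58, 7.96, 7.77, 8.02 and 7.77 log2 CPM in NoOp and at 6.12, 6.98 and 7.72 in SNx. SNx 4 alone overlapped NoOp, and the fall was 0.83 (SE 0.19, edgeR adjusted p = 0.0015). Eci2, an isomerase, fell by 1.12 and Acad11, a dehydrogenase of long chains, fell by 0.89.

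The last 8 genes were assigned by hand to the cytosol or endoplasmic reticulum, and of these 6 fell, 1 rose and 1 did not pass. For some of them, Acsl1 included, that location is not exclusive. Acsl1, the main long-chain acyl-CoA synthetase of oxidative tissues, stood at 8.06, 8.20, 8.26, 8.35 and 8.29 log2 CPM in NoOp. Its SNx range was 5.55 to 7.86 with a median of 7.04, clear of NoOp (log2 fold change -1.12, SE 0.28, edgeR adjusted p = 0.003). Acsl3, a synthetase of the endoplasmic reticulum and lipid droplets, fell by 0.63. The left-out relative Acsl5 went the other way, from 5.20 to 5.71 log2 CPM in NoOp and from 6.05 to 6.43 in SNx. Acot12, a cytosolic thioesterase for acetyl-CoA, had the largest fall of the 44. It was at 4.68, 4.91, 3.98, 4.69 and 3.93 log2 CPM in NoOp and ranged in SNx from -2.55, which was 2 counts in SNx 1, through a median of 1.73 to 3.44. No library overlapped, and the log2 fold change was -2.46 (SE 0.55, edgeR adjusted p = 0.0014). Acss2, which activates acetate, fell by 1.76, Phyhd1, a relative of phytanoyl-CoA hydroxylase, fell by 1.15, and the thioesterase Acot1 fell by 1.01.

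Fabp4, the fatty acid binding protein of fat cells, macrophages and some endothelium, varied too much for a call. Its NoOp values were 0.19, 3.44, 0.94, 4.71 and 5.41 log2 CPM, and its SNx values ran from -0.08 through a median of 3.46 to 4.61. The log2 fold change of -0.62 (SE 0.68, edgeR adjusted p = 0.45) became 0.10 without NoOp 5. Cidec, the other fat-cell marker that could be examined, was at 5.02 to 6.04 log2 CPM in NoOp and 1.86 to 5.14 in SNx. The part of fat cells in these values was not tested.

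The mitochondrial and peroxisomal enzymes had similar median fold changes. The difference between their median log2 fold changes (mitochondrial minus peroxisomal) was 0.07, and it ranged from 0.03 to 0.11 when each library was left out in turn. Per library, the median over the genes of log2 CPM minus the NoOp mean was -1.30 ± 0.64 (SD, n = 12) for the mitochondrial enzymes and -1.42 ± 0.84 for the peroxisomal enzymes in SNx. The difference within a library averaged 0.13 ± 0.25, so its spread over rats was larger than its size. It was positive in 8 of 12 SNx kidneys, from -0.29 in SNx 3 to 0.49 in SNx 1, and between -0.04 and 0.06 in NoOp. It was highest, at 0.31 to 0.49, in libraries SNx 1, 5, 6, 8 and 10, those in which the 44 genes were lowest, and at most 0.09 in the other 7. Without Acot5, left out after its very low counts were seen, it was 0.08 ± 0.21 and positive in 10 of 12. In SNx 1, 5, 6, 8 and 10 it was then 0.13 to 0.37, and at most 0.11 in the other 7, so the gap between these libraries was much narrower. No test was made of this difference, since its genes were chosen with results of these libraries known.

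The peroxins stood apart from both groups by their median in every SNx kidney. Their per-library median was -0.75 ± 0.36, and it lay above that of the mitochondrial enzymes by 0.15 to 1.03 and above that of the peroxisomal enzymes by 0.16 to 1.52 in all 12. In NoOp these differences were between -0.07 and 0.03. The contrast with the mitochondrial enzymes was smallest in SNx 4 and SNx 11. Single genes did not follow this order, since Pex11a fell as far as the enzymes did, and Cpt1a, Acox3 and Crot fell less than Pex5 and Pex13. With 4 peroxins, the contrast describes the listed genes and not peroxisome assembly as a whole.

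**Figure D3:**
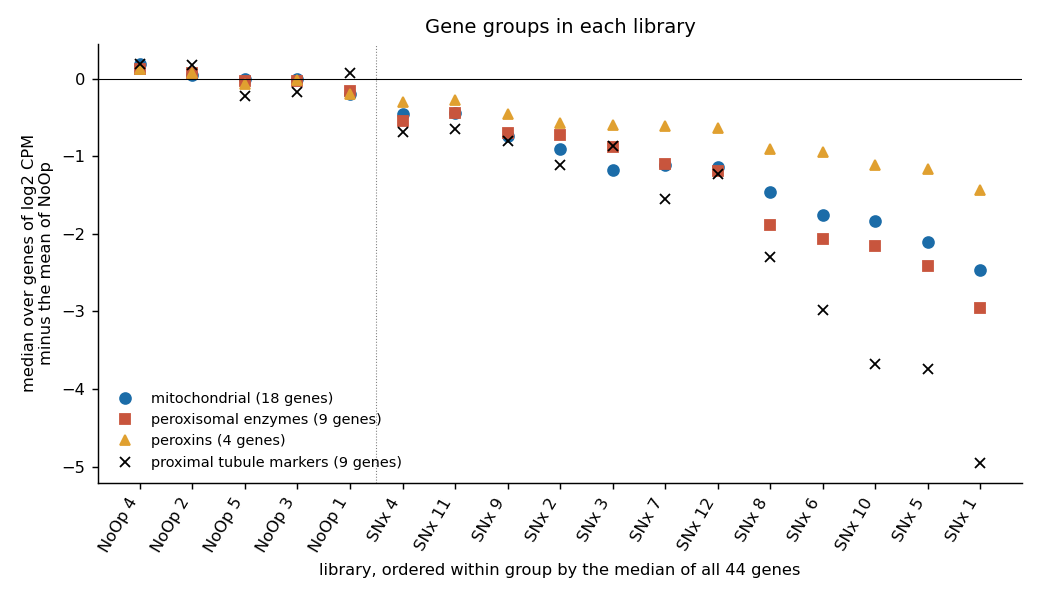
Median over genes of log2 CPM minus the NoOp mean in each library, for mitochondrial enzymes, peroxisomal enzymes, peroxins and proximal tubule markers, with libraries ordered within each group by the median of all 44 genes. NoOp libraries lie near 0, all SNx libraries lie below 0, and SNx 1 is lowest in each of the 4 groups, at -2.46, -2.95, -1.43 and -4.95.

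The SNx kidneys differed greatly from one another, and the genes largely shared the order of the rats. The median over all 44 genes was -2.34 in SNx 1, the lowest, and -2.04 in SNx 5. At the other end it reached -0.42 in SNx 11 and -0.38 in SNx 4, where the NoOp libraries lay between -0.18 and 0.16. SNx 1 held the lowest SNx value for 38 of the 44 genes. The highest value was in SNx 11 for 24 genes and in SNx 4 for 14. Leaving out SNx 1 gave 36 of the 39 genes lower and 1 higher, and, over all enzymes of each group, median log2 fold changes of -1.13 for the mitochondrial and -1.21 for the peroxisomal enzymes. SNx libraries had lower total counts than NoOp, and SNx 1, SNx 6 and SNx 10, among the most affected, had the lowest, at 19210434, 19270983 and 19536433. SNx 11 had 21865713. The parts of depth and of RNA integrity in the order of the rats were not tested.

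Markers of cell types differed between the groups as well. A marker could be examined only if its gene was on the parts of the study's lists available here, which were the source of identifiers. The counts below leave out all other markers, among them Slc7a13, Ggt1 and Lum, which the paper does report as changed. They are to be read against the 27.7% of all genes called lower and the 30.3% called higher. Of 13 proximal tubule markers 9 could be examined, and all 9 were lower in SNx. Their summed level was 23335 to 26833 CPM in NoOp and 1805 to 18044 CPM in SNx, so the labelled tissue was recognisable in every library. In 11 of 12 SNx kidneys the median of the tubule markers was further below NoOp than the median of the 44 genes, by up to 2.60 in SNx 1, whereas in SNx 3 it was 0.12 less far below. Leukocyte markers went the other way, and the 6 of 11 that could be examined were all higher (summed 65.5 to 91.1 CPM in NoOp and 203 to 467 CPM in SNx), as were both fibroblast markers out of 7 (203 to 235 CPM against 834 to 9501 CPM). The single collecting duct marker of 7 that could be examined, Slc26a4, was lower, and none of the markers of loop and distal tubule, podocytes or endothelium could be. No marker examined was at 0 in any library. How much of the fall of each gene goes with fewer tubule cells was not tested.

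The genes differed in how evenly they changed among the rats. The SD of log2 CPM over the 12 SNx libraries was larger than over the 5 NoOp libraries in 40 of 44 genes, and also in 12637 of all 15438 genes tested. Its median was 0.64 over the 44 genes and 0.29 over all genes. Ehhadh, Echdc3, Ech1 and Pex11a had fitted log2 fold changes of -1.32, -1.32, -1.30 and -1.38, and differences in mean log2 CPM of -1.75, -1.64, -1.32 and -1.37. Their SDs in SNx were 1.30, 1.04, 0.37 and 0.40. Acsm3 was the most uneven gene, with an SD of 2.12 and a range from 0.60 to 7.64 log2 CPM. In 4 genes the SD was below the median of all genes, among them Crot, Cpt1a and Acox3 at 0.16, 0.19 and 0.26. A fold change fitted on counts gives more weight to the kidneys with high levels, and for 40 of 44 genes the difference in mean log2 CPM was lower than the fitted value, as for Acsm3 with -3.18 against -2.36 and Amacr with -2.42 against -1.77.

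**Figure D4:**
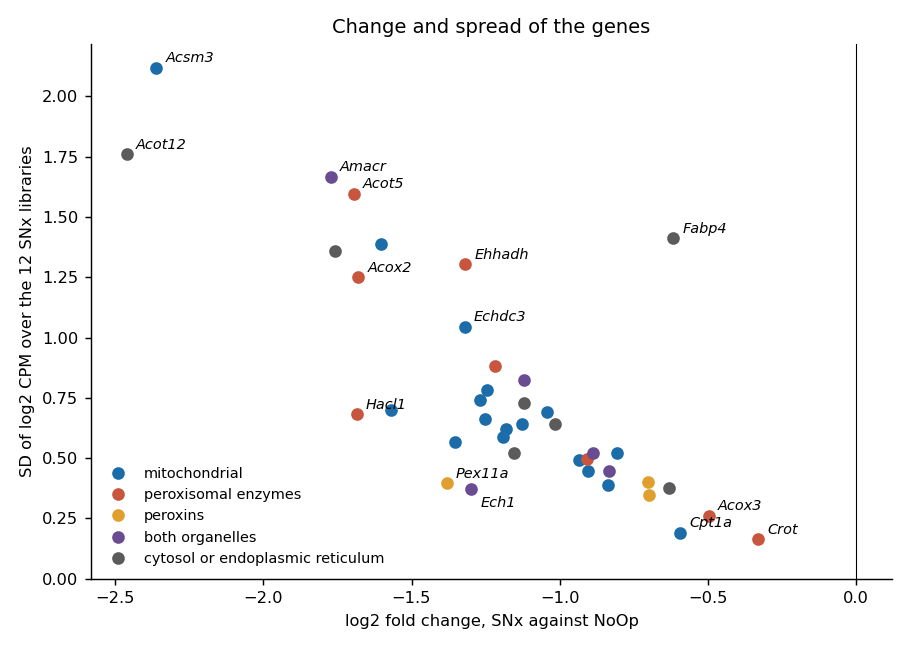
SD of log2 CPM over the 12 SNx libraries against the log2 fold change of SNx against NoOp for 40 of the 44 genes, coloured by location. Acsm3, Acot12 and Amacr combine large falls with SDs above 1.6, whereas Pex11a and Ech1 lie low on the plot at a log2 fold change near that of Ehhadh, whose SD is 1.30.

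The sample labels carry running numbers in 2 ranges, with 6 SNx libraries in each and all NoOp libraries in the lower one, and what the numbers record is not stated. Within the lower range 36 of the 39 genes listed from other rats were lower and 1 higher, and within the upper range, set against the same controls, the counts were again 36 and 1. The median for the mitochondrial enzymes was -1.34 and -1.08, and for the peroxisomal enzymes -1.25 and -1.19, in the lower and upper ranges. The difference between them was therefore -0.08 in the lower and 0.11 in the upper range. Ehhadh lost its call with the lower range alone (edgeR adjusted p = 0.12), and Acot5 gained one there (edgeR adjusted p = 0.035).

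Other genes of the same pathways, on lists written with earlier results known, could likewise be examined only where they stood on the available parts of the study's lists. Genes called listed below are those found there. A call was largely set by that choice, and over all genes tested 27.7% were called lower. Of 33 further peroxisomal proteins 14 were listed, 3 of them from these libraries, and the other 11 all fell. These included Ddo, D-aspartate oxidase (log2 fold change -1.13, SE 0.19, edgeR adjusted p = 0.00015), the membrane protein Pxmp4 (-1.41, SE 0.24, edgeR adjusted p = 0.00015) and the protease Lonp2 (-0.97, SE 0.17, edgeR adjusted p = 0.00016). Mlycd, malonyl-CoA decarboxylase, listed from these libraries, had a log2 fold change of -1.20 (SE 0.21). For fatty acid entry and carnitine 2 of 11 were listed, and both fell. They were Slc27a2, an importer and activator of very long chains (-1.66, SE 0.41), and Tmlhe, the first enzyme of carnitine synthesis (-1.61, SE 0.38). Ketone use was represented by Bdh2 alone out of 3 genes, and it fell by 1.21.

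Some steps in the breakdown of branched-chain amino acids feed the same flavoprotein, and genes of propionate breakdown were put on the same list. Of 16 genes 10 were on the available lists, 1 of them from these libraries, and the other 9 all fell, again beside 27.7% of all genes. The median log2 fold change of the 10 was -1.12. Mccc1, a subunit of methylcrotonyl-CoA carboxylase, fell by 1.49, Bckdha, of the branched-chain keto acid dehydrogenase, fell by 1.33, and Dbt, of the same complex, had a log2 fold change of -0.996. Mut, methylmalonyl-CoA mutase, listed from these libraries, had a log2 fold change of -1.07 (SE 0.26).

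Nuclear receptors and their usual targets did not move as one. Of 28 genes 7 were on the available lists, 1 of them from these libraries, and of the other 6, 5 fell and 1 rose. Over all genes tested 27.7% were called lower and 30.3% higher. The receptor Nr1h4 fell by 1.09 (SE 0.18, edgeR adjusted p = 0.00011). Angptl4, an inhibitor of lipoprotein lipase and a common PPAR target, rose by 2.19 (SE 0.49, edgeR adjusted p = 0.0013), from 1.28 to 3.42 log2 CPM in NoOp to between 3.57 and 6.13 in SNx. Ucp2, a mitochondrial carrier listed from these libraries, was at 5.28 to 5.59 log2 CPM in NoOp and 6.21 to 7.54 in SNx (log2 fold change 1.54, SE 0.20). Of 19 genes of fatty acid and sterol synthesis 2 were on the available lists. The one listed from other rats rose. Elovl1, an elongase of very long chains listed from these libraries, had a log2 fold change of -0.90 (SE 0.12).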

How the data were processed

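Kidney RNA of 12 SNx and 5 NoOp rats was analysed, 1 library per rat. The authors quantified reads against the rn6 transcriptome with Salmon (named in the submitters' processing notes, version not given in the sources used here), collapsed transcripts to genes with tximport, and deposited the estimated counts as whole numbers. The authors also deposited log2 values after limma's voom transformation for 13318 genes. The tables of the whole series held the same values in 34 columns and were not used.

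Counts were tested in R 4.3.3 with edgeR 4.0.16 (filterByExpr, TMM, glmQLFit and a two-sided glmQLFTest). P-values of all 15438 genes were adjusted after Benjamini and Hochberg, and FDR < 0.05 was the threshold. Levels are log2 CPM with a prior count of 2. The study itself used limma-voom, which was an alternative here. The others were DESeq2 1.42.0, limma 3.58.1 on the deposited log2 values, scaling by RLE or by library size alone, testing without a filter, a minimum of 10 counts in all libraries, a 1.5-fold change, each library left out, the SNx libraries of either range of label numbers, other assignments of genes to organelles, and a prior count of 0.5. Scripts were tested on simulated data. Figures used Python 3.11.15 and matplotlib 3.10.9.

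Symbols came from the available parts of the study's lists of changed genes (2007 identifiers, all in the count table). Locations and the lists of other genes and markers were written by hand from general knowledge. The genes, lists and tests were chosen with earlier results of these data known. Of the 44 genes 40 are named, and results for a few genes are not reported here. Values of each NoOp library and the lowest, median and highest SNx value are given for core steps of each pathway and for the gene with the largest and the smallest fall (or a rise) in each location, as far as reported, and for Acsm3, Acox2 and Pex13, chosen after their values were seen. At most 4 genes of each other list are named, those with the smallest p-values. Members listed from these libraries get no p-value. Promoters came from RefSeq. Protein sequences were not analysed here. SEs follow from each fold change and the square root of its F value. Depth limits Acot5 and Acot12, which had 1 and 2 counts in their lowest libraries. The labels give no replicate numbers, so libraries were numbered within groups in the order deposited. No pair of libraries in a group differed by as little as sampling noise (chi-square per degree of freedom of at least 22.0 in SNx and 26.2 in NoOp).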

Additional observations from a re-analysis of the deposited data

Results flagged for a closer look

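In the 5 NoOp libraries, the gap between an extreme value and its neighbour was compared with the range of the group (Dixon's ratio, limit 0.71 for 5 libraries) for each of the 44 genes, and chance alone would mark about 2.2 of 44. Both marks fell on NoOp 3. Acsm3 was at 9.09 log2 CPM in NoOp 3 and between 8.29 and 8.51 in the rest of NoOp. Leaving NoOp 3 out changed its log2 fold change to -2.20. Hsd17b4 was at 7.82 log2 CPM in NoOp 3 and between 8.29 and 8.47 in the rest of NoOp, with a log2 fold change of -1.01 when NoOp 3 was left out.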

How the results depend on the processing

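Among the 39 genes listed from other rats 35 to 37 were lower and 1 was higher in every fit with no limit on the size of the change. Counted over all 44 genes, the 5 chosen on these libraries included, the number lower was 40 to 42 under these fits, and 38 with a change of at least 1.5-fold required, where the count of genes called higher was 0 in place of 1. With each library left out in turn, 41 to 42 genes were lower and 1 was higher, the median log2 fold change was -1.32 to -1.13 for mitochondrial and -1.39 to -1.21 for peroxisomal enzymes, their difference 0.03 to 0.11, and the median SD in SNx 0.57 to 0.67. The sign of the Fabp4 log2 fold change, never past the threshold, turned to 0.078 with limma-voom and 0.11 with limma on the deposited values, and ran from -0.92 to 0.10 when each library was left out, the last without NoOp 5. Acot5 passed with DESeq2 (adjusted p = 0.043), RLE size factors (edgeR adjusted p = 0.045), limma-voom (adjusted p = 0.0066), limma on the deposited values (adjusted p = 0.020), the lower label numbers and 5 of the fits that left out a library. The filter of 10 counts in every library kept 42 of the 44 genes. With library size alone as the scaling the median of all genes moved from 0.02 to 0.23, the share of calls that were lower from 47.8% to 25.4%, and the medians of mitochondrial and peroxisomal enzymes to -1.03 and -1.10, with 40 genes lower and 1 higher. The difference between mitochondrial and peroxisomal enzymes was 0.04 with the enzymes of both organelles counted as peroxisomal, 0.09 with them counted as mitochondrial, 0.07 for core steps of β-oxidation, 0.10 for genes of the other study's list alone, 0.14 from mean log2 CPM and 0.04 without Acot5, the last 3 chosen after seeing the data. It was 0.16 with limma-voom and 0.17 with limma on the deposited values, and its sign turned (-0.08) in the lower label numbers alone. No paired analysis applied, because the groups were different rats with 1 library each.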
